A study of Homo sapiens with 12 samples.

Results

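The 7 chemokine genes followed across the 4 groups were CXCL9, CXCL10, CXCL11, CXCL12, CXCL14, CXCL16 and CX3CL1. They were chosen by gene symbol, and all 7 have a row among the 28901 gene names of the table. RNA-seq was performed at day 14 of adipocyte differentiation of ASC52telo hTERT, human adipose stromal cells immortalized with telomerase. Cells of every group carried a lentiviral shRNA vector and were sorted for its ZsGreen reporter before differentiation, and all were kept in medium with insulin and dexamethasone, a glucocorticoid. The scramble control and linc-ADAIN KD groups expressed scramble or linc-ADAIN shRNA without LPS, and the other 2 groups expressed the same shRNAs and received LPS, a bacterial ligand of TLR4, at 100 ng/mL for 4 h. Each group had 3 libraries from 1 experiment in triplicate, so p-values here measure the spread between these libraries, which may be technical. The level of linc-ADAIN was not analysed here.

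Chemokines are small secreted proteins that guide the migration of cells bearing the matching receptor. CXCL9, CXCL10 and CXCL11 are classically induced by interferons, with IRF1 and NF-kB acting at the same promoters, and draw activated T cells and NK cells through CXCR3. CXCL12 and CXCL14 are homeostatic chemokines made constitutively in many tissues, and CXCL12 acts on CXCR4 and ACKR3. CX3CL1 (fractalkine) and CXCL16 are made as membrane-anchored proteins that can be shed by ADAM10 and ADAM17, and bind CX3CR1 and CXCR6. In adipose tissue, stromal cells and adipocytes are known as sources of several of these ligands.

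The 3 interferon-type genes lie side by side on the minus strand of chromosome 4 within 40141 bases of GRCh38, with CXCL9 at chr4:76001275-76007509, CXCL10 at chr4:76021118-76023497 and CXCL11 at chr4:76033682-76041415. The gaps are 13608 bases between CXCL9 and CXCL10 and 10184 bases between CXCL10 and CXCL11. Their promoters are shown because these are the genes whose RNA appeared with LPS. The 250 bases before each RefSeq start are given on the gene's own strand, with matches in capitals to ISRE (GAAA, any 2 bases, GAAA), GAS (TTCNNNGAA) or the kB consensus, each searched on both strands. They span chr4:76007510-76007759, chr4:76023498-76023747 and chr4:76036071-76036320 (RefSeq, GRCh38.p14). The CXCL11 window lies inside the gene span given above, which comes from another annotation (GENCODE) and starts farther upstream.
CXCL9: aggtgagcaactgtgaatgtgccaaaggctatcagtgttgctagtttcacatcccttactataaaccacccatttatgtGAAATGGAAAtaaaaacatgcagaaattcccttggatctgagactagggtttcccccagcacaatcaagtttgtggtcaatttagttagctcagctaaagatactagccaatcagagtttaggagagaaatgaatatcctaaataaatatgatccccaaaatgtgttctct
CXCL10: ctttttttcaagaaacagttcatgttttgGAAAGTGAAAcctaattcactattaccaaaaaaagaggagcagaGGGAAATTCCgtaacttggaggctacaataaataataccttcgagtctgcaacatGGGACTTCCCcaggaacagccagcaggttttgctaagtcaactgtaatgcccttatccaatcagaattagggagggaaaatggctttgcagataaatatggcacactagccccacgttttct
CXCL11: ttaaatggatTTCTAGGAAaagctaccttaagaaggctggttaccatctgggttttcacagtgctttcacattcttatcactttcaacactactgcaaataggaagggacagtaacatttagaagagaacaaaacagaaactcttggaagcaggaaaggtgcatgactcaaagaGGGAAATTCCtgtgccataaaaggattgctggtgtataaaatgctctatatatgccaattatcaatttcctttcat
CXCL9 holds 1 ISRE match, 171 to 162 bases before its start. CXCL10 holds 1 ISRE match at 221 to 212 bases and 2 kB matches, at 177 to 168 and at 122 to 113 bases before the start. CXCL11 holds 1 GAS match at 240 to 232 bases and 1 kB match at 76 to 67 bases. Promoter entries were found for 5 of the 7 genes, and the CXCL12 and CXCL14 windows held no match. Of 35116 promoters of this length, 3.02% held an ISRE match, 6.57% a GAS match and 9.96% a kB match. A match describes letters in the window and is not a measured binding site.

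The libraries held 28.4 to 53.8 M (1e6) counts on named genes. Levels are given as CPM, counts per 1e6 after TMM scaling, which corrects for depth and composition but not for gene length. A gene is called changed where edgeR's quasi-likelihood test gave an adjusted p under 0.05 and the difference was at least 2-fold. The adipocyte marker sum (8 genes) was 2797 to 3919 CPM without LPS and 3328 to 3768 CPM with LPS for scramble shRNA, and 558 to 1653 and 467 to 1087 CPM in the linc-ADAIN KD groups without and with LPS. Between the shRNAs, 4 of the 8 fell without LPS and 5 of 8 with LPS, where 7.77% and 8.48% of all genes changed either way. The stromal marker sum (6 genes) was 5015 to 6023 and 4755 to 5368 CPM in the scramble groups and 6327 to 7200 and 7367 to 8199 CPM in the KD groups without and with LPS. Its members did not follow the sum, since 0 of 6 were called higher and 2 lower without LPS, and 1 higher and 2 lower with LPS. THY1 fell from a mean of 764 to 148 CPM and ENG from 285 to 111 CPM without LPS, whereas DCN, which makes up most of the KD sum, stood at 2671 and 4904 CPM without LPS and rose from 2431 to 6041 CPM with LPS. The leukocyte marker sum (8 genes) was 59.0 to 74.6 CPM over the scramble groups and 82.1 to 121 CPM over the KD groups, with 2 or 3 of the 8 genes at 0 in every library of a group. Its members went both ways between the shRNAs, with 1 higher and 0 lower without LPS and 1 higher and 1 lower with LPS. CD163 rose from a mean of 4.33 to 68.6 CPM without LPS and from 3.79 to 66.0 CPM with LPS, while CD68 was at 53.6 and 31.1 CPM without LPS and fell from 60.1 to 25.4 CPM with LPS. The endothelial sum (6 genes) was 15.3 to 27.1 CPM over the scramble groups and 8.45 to 13.2 CPM over the KD groups. Without LPS 2 of its genes were lower, VWF and TEK, and with LPS VWF was lower and KDR higher, from 0.107 to 3.12 CPM. These sums and the markers named above differed between the shRNAs, and their part in the KD differences given here was not tested. Other markers did not, as 4 of 8 adipocyte and 4 of 6 stromal markers were not called without LPS. In bulk RNA, fewer cells in an adipocyte or stromal state and less RNA per cell cannot be told apart. All groups were cultures of the same stromal cell line. The leukocyte and endothelial sums are therefore given as levels of these genes, not as numbers of such cells.

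Across the 7 genes, LPS raised CX3CL1 in both shRNA groups and CXCL10 in linc-ADAIN KD, and both were higher in linc-ADAIN KD than in scramble control under LPS. CXCL12 was lower and CXCL14 higher in linc-ADAIN KD with and without LPS, each by less than 2-fold. CXCL16 passed no test. Without LPS, 0 of the 4 chemokines tested were called changed between the shRNAs, against 7.77% of all 16217 genes tested, and 0 were higher against 4.28%. At an unadjusted p under 0.05 there were 3, and DESeq2 called 1 changed. Of the 4, 2 passed edgeR's adjusted p at any fold (27.2% of all genes), and 3 had groups that did not overlap (42.5% of all genes). With LPS, 2 of 6 tested were called changed (8.48% of all genes), both higher (4.58%), 4 of 6 passed at any fold (26.9%) and 4 of 6 did not overlap (40.6%). LPS changed 1 of 5 tested in scramble control (2.68% of all genes), which was higher (1.4%) and the only one to pass at any fold (14.3%), and 3 of 5 did not overlap (32.1%). In linc-ADAIN KD, LPS changed 2 of 6 (2.25% of all genes), both higher (1.3%) and the only ones to pass at any fold (11.3%), and the same 2 did not overlap (27.3%). CXCL10 and CXCL11 reached the count minimum for this comparison through the LPS libraries alone, and so did CXCL10 for LPS in scramble control and CXCL11 between the shRNAs with LPS, so these could be higher or untested but not lower. Among members with counts in both groups, 1 of 4 was called with LPS in each shRNA group and 2 of 5 between the shRNAs with LPS. The LPS response differed between the shRNAs for 0 of the 4 chemokines where it could be estimated (1.28% of all genes by edgeR), 0 at an unadjusted p under 0.05 and 0 with DESeq2.

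**Figure D1:**
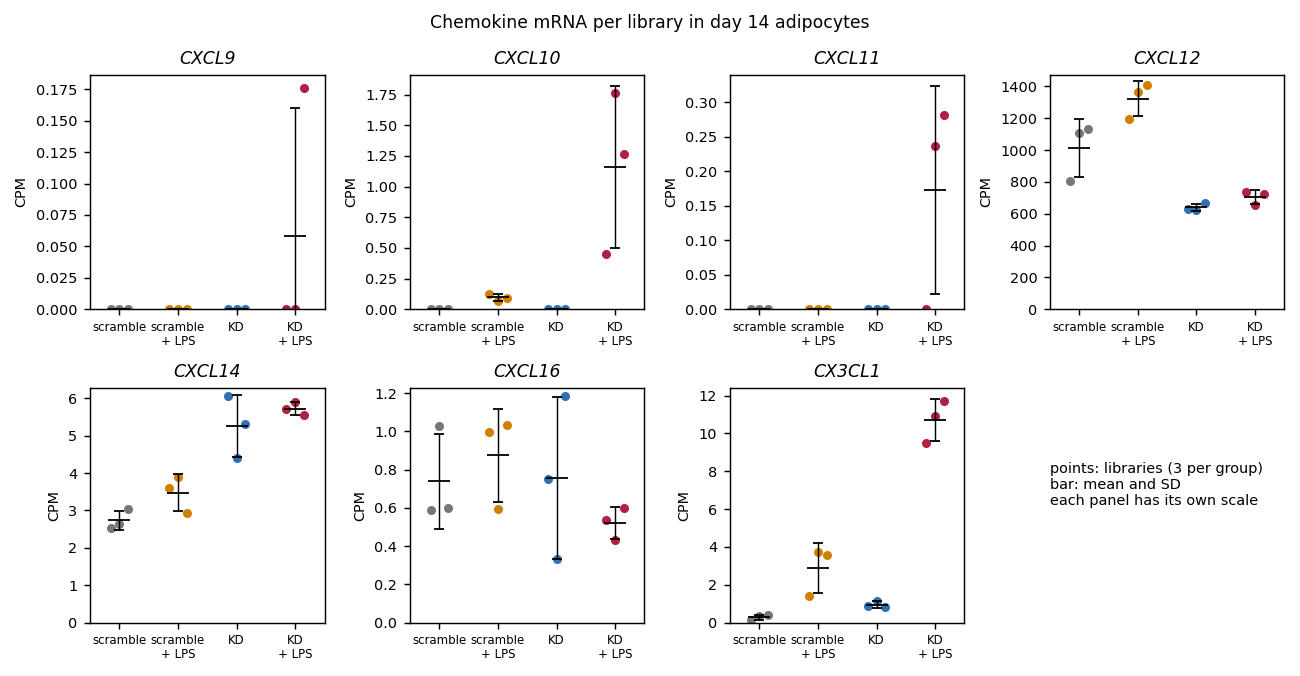
Chemokine mRNA in CPM (y axis, each panel on its own linear scale from 0) in the 12 libraries of the 4 groups; points are libraries and bars the mean and SD of 3. CX3CL1 was 9.51 to 11.7 CPM in linc-ADAIN KD with LPS, above every other library, and CXCL12 was lower in all 6 KD libraries than in all 6 scramble libraries.

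CXCL10, the interferon-induced ligand of CXCR3, had 0 counts in all 6 libraries without LPS. With LPS it had 5, 2 and 4 counts in the scramble control libraries and 16, 82 and 36 counts in the linc-ADAIN KD libraries. In CPM these were 0.128, 0.0661 and 0.0937 against 0.453, 1.76 and 1.27. Every KD library was above every scramble library, and the KD libraries themselves spread widely, with replicate 1 the lowest. The mean under LPS was 0.0959 ± 0.031 CPM for scramble shRNA and 1.16 ± 0.662 CPM for linc-ADAIN shRNA (SD, n = 3 each), a 12.1-fold ratio. The log2 difference was 3.54 ± 0.83 (SE, edgeR adjusted p = 0.0058). Without KD replicate 2 it was 3.09 and no longer passed (edgeR adjusted p = 0.064). The ratio of pooled counts was 12.4, with a 95% interval of 6.70 to 25.4 that covers counting error only.

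Because CXCL10 stood at 0 without LPS, its change with LPS can only be bounded, taking 3 counts over the group as the limit that a count of 0 allows. In linc-ADAIN KD, CXCL10 was at least 52.3-fold higher with LPS (edgeR adjusted p = 0.0015). In scramble control it was at least 4.97-fold higher, from 11 counts in all, and did not pass (edgeR adjusted p = 0.14), except when all 12 libraries were fitted together (edgeR adjusted p = 0.035). Whether the response to LPS differed between the shRNA groups could not be estimated for CXCL10 or CXCL11, since both groups without LPS were at 0.

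CXCL11, a further interferon-induced ligand of CXCR3, had 0, 11 and 8 counts in the linc-ADAIN KD libraries with LPS and 0 counts in the other 9 libraries. Its KD level with LPS was 0.173 ± 0.151 CPM (SD, n = 3), and a count of 0 over scramble control with LPS allows up to 0.0268 CPM. This gives a level at least 6.44-fold higher in linc-ADAIN KD, with 1 of 3 KD libraries also at 0, and the difference did not pass (edgeR adjusted p = 0.12). Against linc-ADAIN KD without LPS it was at least 7.41-fold higher and also did not pass (edgeR adjusted p = 0.20).

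CXCL9, the third CXCR3 ligand, had 5 counts in replicate 3 of linc-ADAIN KD with LPS and 0 in the other 11 libraries. It was under the minimum of 10 counts and was not tested in any of the 4 comparisons. The 3 interferon-type genes thus had their highest counts in the same group, at low depth. Per kb of transcript, the mean levels there were 0.988 CPM for CXCL10, 0.117 CPM for CXCL11 and 0.0212 CPM for CXCL9.

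CX3CL1, the fractalkine gene on chromosome 16 (chr16:57372477-57385044, plus strand), rose with LPS in both shRNA groups. Its level was 0.133, 0.342 and 0.387 CPM in scramble control and 1.38, 3.73 and 3.56 CPM after LPS. In linc-ADAIN KD it was 0.864, 1.15 and 0.815 CPM, and 9.51, 10.9 and 11.7 CPM after LPS. The order of means was scramble control, linc-ADAIN KD, scramble control with LPS and linc-ADAIN KD with LPS, and libraries did not overlap between any neighbours in that order. Steps between neighbouring means were 3.28-fold, 3.07-fold and 3.70-fold.

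LPS raised CX3CL1 by 3.34 ± 0.52 on the log2 scale in scramble control (SE, edgeR adjusted p = 0.0011), a 10.1-fold ratio of means. In linc-ADAIN KD the LPS difference was 3.49 ± 0.24 (SE, edgeR adjusted p = 1.5e-07), an 11.4-fold ratio. The difference between these responses was 0.17 ± 0.57 on the log2 scale (SE, edgeR adjusted p = 0.99), which did not pass. Under LPS, linc-ADAIN KD exceeded scramble control by 1.89 ± 0.31 (SE, edgeR adjusted p = 0.00037). Without LPS the log2 difference was 1.71 ± 0.64 (SE, edgeR adjusted p = 0.070) with 7 to 18 counts in the scramble libraries and 30 to 62 in the KD libraries. The groups did not overlap there, which was so for 42.5% of all genes. This difference was past the thresholds with DESeq2 (adjusted p = 0.036) and with 12 libraries in 1 fit (edgeR adjusted p = 0.0042). It did not pass in the other 11 of 13 alternatives. The edgeR adjusted p was 0.12 with the replicate block and 0.093 to 0.20 with 1 library left out.

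CXCL16, the membrane-anchored ligand of CXCR6 on chromosome 17 (chr17:4733533-4739928, minus strand), passed no test and overlapped between groups. Its libraries ran from 0.589 to 1.03 CPM in scramble control, 0.594 to 1.03 CPM with LPS, 0.334 to 1.19 CPM in linc-ADAIN KD and 0.430 to 0.598 CPM in linc-ADAIN KD with LPS. The log2 differences were 0.03 ± 0.60 and −0.75 ± 0.63 for linc-ADAIN KD without and with LPS, and 0.26 ± 0.48 and −0.53 ± 0.75 for LPS in scramble control and linc-ADAIN KD (SE, edgeR adjusted p = 0.98, 0.44, 0.79 and 0.76). With 17 to 54 counts per library, a 2-fold difference was not detectable at these errors. Exons of CXCL16 overlap those of MED11 on the opposite strand, which had 98 to 257 counts, and the strand setting of the counting is not given in the sources used here.

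**Figure D2:**
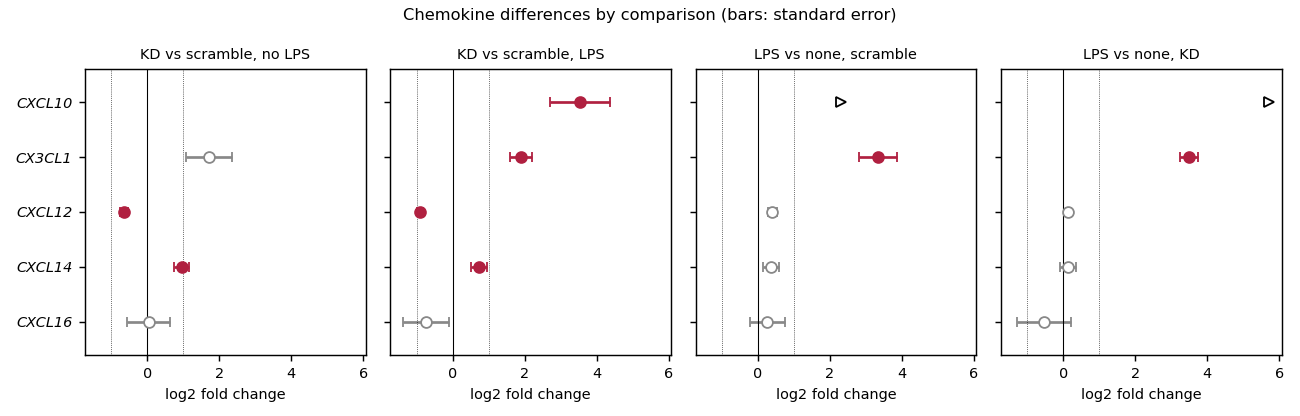
Log2 fold change (x axis, dotted lines at 2-fold) of 5 chemokines in the 4 comparisons. Points with bars are edgeR estimates and SE, filled where the adjusted p was under 0.05 at any fold; triangles are lower bounds for CXCL10 where the group without LPS was at 0, and CXCL10 has no value without LPS.

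CXCL12 (stromal cell-derived factor), on chromosome 10 (chr10:44370165-44386493, minus strand), was by far the most abundant of the 7. Per kb of transcript its mean was 287 CPM in scramble control, against 1.39 for CXCL14, 0.318 for CXCL16 and 0.0496 for CX3CL1. Scramble control libraries stood at 806, 1105 and 1134 CPM, and linc-ADAIN KD libraries at 632, 621 and 667 CPM. With LPS, scramble control libraries stood at 1198, 1365 and 1406 CPM and linc-ADAIN KD libraries at 737, 654 and 724 CPM. All 6 KD libraries were below all 6 scramble libraries, and scramble control replicate 1 lay closest to the KD range.

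CXCL12 fell by 0.66 on the log2 scale in linc-ADAIN KD without LPS (SE 0.11, edgeR adjusted p = 0.0010), a 1.59-fold difference of means. With LPS it fell by 0.91 (SE 0.079, edgeR adjusted p = 1.4e-06), or 1.88-fold. The LPS difference of CXCL12 was 0.40 ± 0.12 in scramble control (SE, edgeR adjusted p = 0.0501), just short of the threshold, and the alternatives gave adjusted p from 0.00041 to 0.17. In linc-ADAIN KD the LPS value was 0.14 ± 0.069 (SE, edgeR adjusted p = 0.25), with overlapping libraries. The difference between the LPS responses was −0.24 ± 0.15 (SE, edgeR adjusted p = 0.59).

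CXCL14, a homeostatic chemokine of epithelia and stroma on chromosome 5 (chr5:135570679-135579279, minus strand), moved the opposite way to CXCL12 between the shRNAs. Scramble control libraries had 2.52, 2.64 and 3.03 CPM, and linc-ADAIN KD libraries 6.08, 4.40 and 5.31 CPM. With LPS, scramble control libraries had 3.60, 3.90 and 2.93 CPM and linc-ADAIN KD libraries 5.71, 5.92 and 5.55 CPM. The KD libraries were all above the scramble libraries, while libraries with and without LPS overlapped for either shRNA. CXCL14 rose in linc-ADAIN KD by 0.95 ± 0.22 on the log2 scale without LPS (SE, edgeR adjusted p = 0.0071) and by 0.72 ± 0.23 with LPS (SE, edgeR adjusted p = 0.031). The call with LPS was lost without scramble control replicate 3 (0.61, edgeR adjusted p = 0.12) and without any 1 of the 3 KD replicates (edgeR adjusted p = 0.067, 0.090 and 0.063 without replicates 1, 2 and 3). The LPS values were 0.36 ± 0.23 in scramble control and 0.13 ± 0.21 in linc-ADAIN KD (SE, edgeR adjusted p = 0.36 and 0.80). CXCL14 exons overlap those of SLC25A48 on the opposite strand, which had 0 to 36 counts.

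Receptors of these ligands were mostly at or near 0 in the same cells. CXCR3, the receptor of CXCL9, CXCL10 and CXCL11, and CXCR4, the signalling receptor of CXCL12, had 0 counts in all 12 libraries. CXCR6, the CXCL16 receptor, had 6 counts over the linc-ADAIN KD libraries, 3 with LPS and 0 in the scramble groups. CX3CR1, the fractalkine receptor, had 0 to 28 counts per library and passed no test.

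ACKR3, an atypical receptor that takes up CXCL12 without classical G protein signalling, was the exception. For scramble control its mean was 16.4 ± 1.36 CPM without LPS and 32.0 ± 4.97 CPM with LPS, and for linc-ADAIN KD 44.6 ± 1.19 and 94.4 ± 6.81 CPM (SD, n = 3 each). It rose in linc-ADAIN KD by 1.45 ± 0.097 without LPS and by 1.56 ± 0.11 with LPS on the log2 scale (SE, edgeR adjusted p = 6.8e-07 and 2.6e-07). LPS raised it by 0.98 ± 0.12 in scramble control and by 1.08 ± 0.088 in linc-ADAIN KD (SE, edgeR adjusted p = 0.00028 and 9.6e-07), and the LPS responses differed by 0.12 ± 0.15 (SE, edgeR adjusted p = 0.87). ACKR3 and CXCL12 thus differed between the shRNAs in opposite directions.

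Among 6 processing enzymes, DPP4, a peptidase that trims the N termini of CXCL9, CXCL10, CXCL11 and CXCL12, was higher in linc-ADAIN KD. Without LPS the mean was 113 ± 20.6 CPM for scramble shRNA and 475 ± 5.11 CPM for linc-ADAIN shRNA (SD, n = 3 each). With LPS the scramble libraries had 85.3, 99.7 and 115 CPM, and the linc-ADAIN KD mean was 527 ± 44.5 CPM (SD, n = 3). The log2 differences were 2.07 ± 0.11 and 2.40 ± 0.11 (SE, edgeR adjusted p = 1.5e-07 and 3.5e-09). ELANE, an elastase, was the only other one called, lower in linc-ADAIN KD without LPS at a mean of 41 counts, and is named although it is under the mean of 50 counts used for naming. ADAM10 and ADAM17, the sheddases of CX3CL1 and CXCL16, differed by less than 2-fold in all 4 comparisons, and ADAM17 rose with LPS by 0.32 ± 0.075 in scramble control and 0.43 ± 0.082 in linc-ADAIN KD (SE, edgeR adjusted p = 0.015 and 0.0030).

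**Figure D3:**
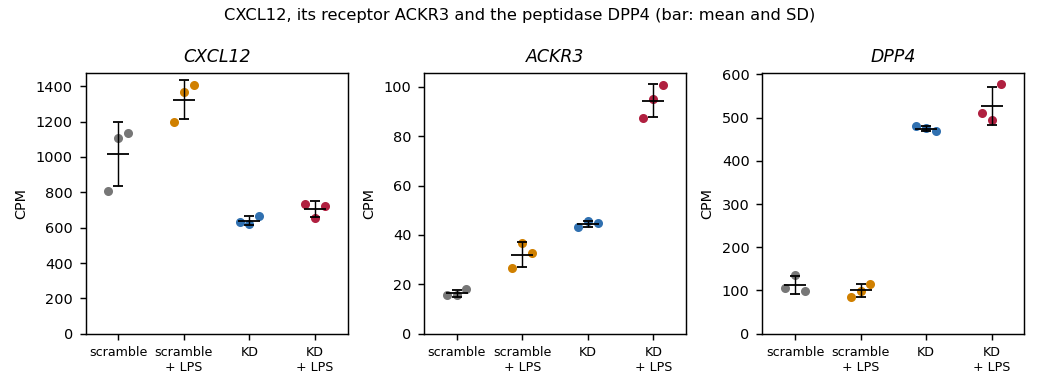
Levels in CPM (y axis, linear from 0) of CXCL12, its receptor ACKR3 and the peptidase DPP4 in 12 libraries; points are libraries and bars the mean and SD of 3 per group. ACKR3 and DPP4 were higher and CXCL12 lower in every linc-ADAIN KD library than in every scramble library with the same LPS treatment.

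The genes that act upstream of the interferon-type chemokines were then counted by list. IFNB1, IFNG and IFNL1 had 0 counts in every library, whereas the receptor genes IFNGR2 and IFNAR2 rose with LPS, by 1.41 and 1.11 on the log2 scale in scramble control and by 1.52 and 1.41 in linc-ADAIN KD. Of 13 interferon signalling genes tested in scramble control, 1 was called higher with LPS and 0 lower, and of 12 in linc-ADAIN KD, 3 were higher and 0 lower. The shares of all genes called higher were 1.4% and 1.3% in the same order. At any fold, 4 were higher in each shRNA group, where 14.3% and 11.3% of all genes passed either way. The LPS response differed between the shRNAs for 0 of 13 (1.28% of all genes). IRF1, a transcription factor of the CXCL10 promoter, rose with LPS by 1.73 ± 0.13 in scramble control and by 1.98 ± 0.12 in linc-ADAIN KD (SE, edgeR adjusted p = 3.9e-06 and 2.6e-08). IRF7, a regulator of type I interferon, and JAK2, a receptor kinase, rose with LPS by 1.14 and 1.07 in linc-ADAIN KD. In scramble control neither was called, with means of 4.05 and 6.19 CPM for IRF7 and 16.4 and 32.3 CPM for JAK2 without and with LPS. Between the shRNAs, IRF1 was higher in linc-ADAIN KD with LPS, by 1.03 ± 0.10 (SE, edgeR adjusted p = 4.0e-06). Without LPS its means were 10.1 and 17.3 CPM for scramble and linc-ADAIN shRNA, and libraries did not overlap (42.5% of all genes).

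Of 8 NF-kB subunits and inhibitors, 7 rose with LPS in each shRNA group, with list medians of 1.55 and 1.83 on the log2 scale beside 0.020 and 0.0099 over all genes tested. Of all genes, 1.4% were called higher with LPS in scramble control and 1.3% in linc-ADAIN KD. The largest were NFKB2, REL, TNFAIP3 and NFKBIZ in both. Of 19 interferon-stimulated genes tested, 2 rose with LPS in scramble control, IFIT2, 2.80-fold by its means, and IFIT3, by 1.46 on the log2 scale. In linc-ADAIN KD, 2 of 19 also rose, GBP2 by 1.99 and GBP1 by 1.64. The list medians were 0.27 and 0.31. The LPS response of GBP2 and GBP1, interferon-induced GTPases, was larger in linc-ADAIN KD by 1.54 ± 0.24 and 1.43 ± 0.17 (SE, edgeR adjusted p = 0.0024 and 0.00024), and these were 2 of 20 tested for this difference (1.28% of all 17173 genes). Both started lower in linc-ADAIN KD. GBP1 means were 65.3 and 24.4 CPM for scramble and linc-ADAIN shRNA without LPS, and 75.4 and 76.0 CPM with LPS. Those of GBP2 were 30.3 and 15.5 CPM without LPS, and 41.6 and 61.7 CPM with LPS.

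**Figure D4:**
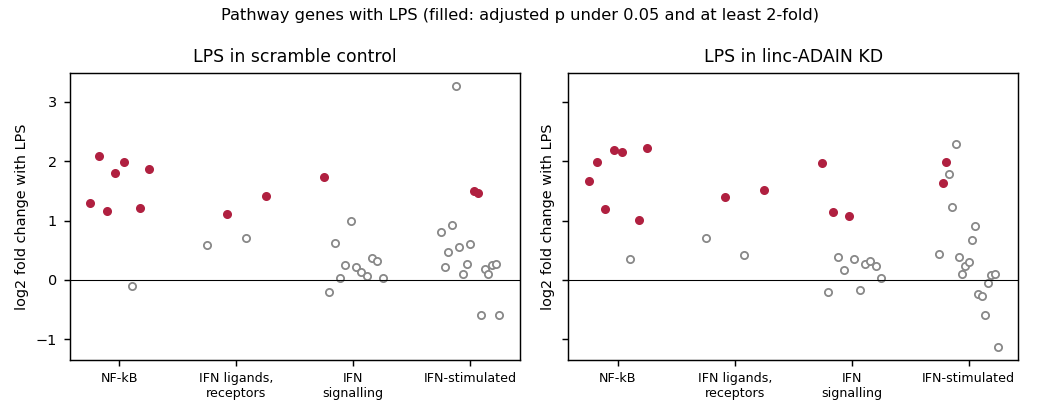
Log2 fold change with LPS (y axis) of genes of 4 pathway lists (x axis) in scramble control and linc-ADAIN KD, with 1 point per gene. Genes are drawn where the mean count was 5 or more and the group without LPS had over 3 counts, and filled points were called changed, with 7 of 8 NF-kB genes and 2 interferon-stimulated genes filled in each panel.

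Between the shRNAs, interferon-stimulated genes went both ways. Without LPS, 2 of 19 were higher and 2 lower in linc-ADAIN KD, where 4.28% of all genes were higher and 7.77% changed either way. IFIT2 was higher by 1.31, GBP1 fell by 1.41 and OASL fell by 1.07 on the log2 scale, and RSAD2 was higher at a mean of 13.5 counts. With LPS, 1 was higher, IDO1 at a mean of 17.3 counts, and 2 were lower, MX2 and OAS1, of which OAS1 fell by 1.12. Over all genes, 4.58% were higher with LPS and 8.48% changed either way. RSAD2 had 0 counts in scramble control and 81 in linc-ADAIN KD without LPS, and IDO1 had 0 and 104 with LPS. These 2 reached the count minimum through the KD libraries alone, so they could be higher or untested but not lower. Of 9 genes on the route from TLR4 to interferon, 2 were higher in linc-ADAIN KD with LPS, TLR4 itself by 1.02 and its co-receptor CD14 at a mean of 46.2 counts, and 0 without LPS. In scramble control TLR4 fell with LPS from a mean of 14.3 to 7.89 CPM (edgeR adjusted p = 0.0045, under 2-fold) and CD14 from 1.26 to 0.348 CPM, the 1 gene of the list called lower. In linc-ADAIN KD the TLR4 means were 13.7 and 16.1 CPM and those of CD14 2.02 and 2.25 CPM without and with LPS, and neither passed. The LPS responses differed for TLR4, by 1.09 ± 0.24 (SE, edgeR adjusted p = 0.030). RSAD2, IDO1 and CD14 are named although they are under the mean of 50 counts.

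Genes with the most similar pattern to a member over the 12 libraries were sought by Pearson's r of log2 CPM, among 11811 genes whose mean was 50 counts or more. Libraries of the same group share their treatment, so r mostly describes the order of the 4 groups. CX3CL1 was most like PTX3 (r = 0.984, n = 12), which encodes a secreted pentraxin, followed by RNF144B (0.981) and TNFAIP8 (0.979). RNF144B had means of 0.409 ± 0.187 and 1.67 ± 0.704 CPM for scramble and linc-ADAIN shRNA without LPS, and 2.73 ± 0.665 and 14.2 ± 3.15 CPM with LPS (SD, n = 3 each), the same order of groups as CX3CL1. CXCL12 was most like ERAP1 (0.978), LAMB1 (0.978) and TIPARP (0.976), and CXCL14 most like TM2D1 (0.970), LAT (0.969) and TCIM (0.967). The other 4 chemokines had means under 50 counts and were not matched.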

How the data were processed

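RNA-seq was performed on 12 libraries, 3 for each of 4 groups. What the authors deposited are kallisto estimated counts for each gene (0.44.0; bcl2fastq 2.19 and DESeq2 1.32.0 are also in the submitters' processing notes), on GRCh38, normalized neither for depth nor for length. Reads were pseudoaligned, which shares reads between similar transcripts, so counts need not be whole. The library kit was stranded, and the strand setting is not given in the sources used here. The row without a name, with 0.235 to 0.306% of counts, was left out.

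After rounding, genes reaching 10 counts over the libraries of a fit were tested with edgeR 4.0.16 (R 4.3.3, limma 3.58.1): TMM scaling, quasi-likelihood F test, Benjamini-Hochberg adjustment over all genes tested. Each shRNA or LPS comparison used its own 6 libraries, and the interaction used all 12. A change was an adjusted p under 0.05 with at least a 2-fold difference, and for the interaction an adjusted p under 0.05 alone. DESeq2 1.42.0 was an alternative. SE is the log2 fold change divided by the square root of F. The fits were tested on simulated counts with 200 genes changed 4-fold, all with a mean of at least 50 counts. Changes at lower counts, as for CXCL10, were not simulated. Of the genes at an adjusted p under 0.05, 3.05 to 8.41% were false with edgeR and 12.6 to 19.3% with DESeq2.

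The members and lists were chosen with earlier results of these data known. Named genes were all members, their receptors and up to 4 per list and comparison, by largest change among those called with a mean of at least 50 counts, plus the 3 most similar genes per member. A gene that this rule would name is not reported here. Gene positions and lengths come from GENCODE release 44 (longest protein-coding transcript) and promoters from RefSeq. With 28.4 to 53.8 M counts per library, 0 counts over 3 libraries allow up to 3 counts. Intervals cover counting error only, and ratios to the limit of 3 counts leave out the counting error of the higher group. Protein sequences were not used here.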

Additional observations from a re-analysis of the deposited data

How the results depend on the processing

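Of 25 member differences fitted, leaving out the interactions of CXCL10 and CXCL11, 18 kept direction and side of the threshold. This holds for alternatives that tested the gene and gave an adjusted p. The 25 include CXCL10 and CXCL11 differences with a group at 0 counts. CXCL10 with LPS in scramble control had 8 such alternatives. CXCL11 had 11 between the shRNAs with LPS and 10 for LPS in linc-ADAIN KD. Other differences between 2 groups had 13. The number of chemokines changed without LPS between the shRNAs went from 0 to 1 with DESeq2 (CX3CL1), with scaling by library size only (CXCL14, past 2-fold) and with 12 libraries in 1 fit (CX3CL1), and ranged from 0 to 1 when 1 library was left out (1 without scramble control replicate 3 or linc-ADAIN KD replicate 2). With LPS it ranged from 1 to 2 when 1 library was left out, at 1 without KD replicate 2. For LPS in scramble control it went from 1 to 2 with 12 libraries in 1 fit. The number of genes with an interaction went from 219 to 475 with DESeq2 and 431 with no low-count filter, and ranged from 92 to 243 with 1 library left out, at 92 without scramble control replicate 2, 131 without KD replicate 1, and 136 and 116 without replicates 2 and 3 of linc-ADAIN KD with LPS. The causes were not tested.

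CXCL16 without LPS reversed to −0.063 with the replicate block, and ranged from −0.45 to 0.39 on the log2 scale when 1 library was left out (−0.11 without scramble control replicate 1, −0.11 without replicate 3 and −0.45 without KD replicate 3). The CX3CL1 interaction ranged from −0.17 to 0.52, with −0.094 without scramble control replicate 3 and −0.17 without replicate 1 of scramble control with LPS. CXCL12 with LPS in scramble control passed the threshold with the replicate block (edgeR adjusted p = 0.00041), DESeq2 (0.0066), no low-count filter (0.013), 12 libraries in 1 fit (0.019) and 2 of the 6 fits with 1 library left out (0.039 each). Deviations of same-numbered libraries correlated from −0.134 to 0.234, over 0.1 in 4 of 18 pairs. Differently numbered libraries of different groups ranged from −0.165 to 0.152. Over 0.1 with and without LPS were replicate 1 of scramble control (0.234) and replicates 1 and 3 of linc-ADAIN KD (0.109 and 0.123). Replicate 2 of the 2 shRNAs with LPS was at 0.157. The numbers were not taken to pair the samples, and the replicate block was kept as an alternative. Per kb of the Ensembl canonical transcript, chosen after seeing the data, CXCL12 in scramble control was at 526 CPM, CXCL14 at 1.62 and CX3CL1 at 0.0875. Depth limits CXCL9, CXCL10, CXCL11 and CXCL16 most.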

Other observations

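Other chemokines in the same libraries were counted as 2 lists. Of 6 neutrophil-attracting CXCL genes, 6 rose with LPS in scramble control and 6 in linc-ADAIN KD, CXCL3 by 1.63 and 2.13 on the log2 scale and CXCL6 by 2.57 and 2.07. Between the shRNAs, 3 of 6 were higher in linc-ADAIN KD without LPS and 4 of 6 with LPS, CXCL8 by 1.63 and 1.79 in the same order. For both lists, the shares of all genes higher in linc-ADAIN KD were 4.28% without LPS and 4.58% with LPS. With LPS, 1.4% of all genes were called higher in scramble control and 1.3% in linc-ADAIN KD.

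Of the CC chemokines, which draw monocytes, eosinophils and T cells, 4 of 8 tested rose with LPS in scramble control and 8 of 10 in linc-ADAIN KD. CCL5 rose with LPS by 3.01 and 4.25. Between the shRNAs, 3 of 8 were higher in linc-ADAIN KD without LPS and 6 of 10 with LPS, with CCL11, an eosinophil attractant, higher by 5.83 and 5.28. The sets of 10 add CCL3 and CCL4, which reached the count minimum through the linc-ADAIN KD libraries with LPS alone. These could be higher or untested but not lower. CCL3 had 178 counts in linc-ADAIN KD with LPS, 5 without LPS, and 7 and 0 in scramble control with and without LPS. CCL4 had 141 counts in linc-ADAIN KD with LPS and 0 in the other groups. Both are named although under the mean count used for naming. The LPS response differed between the shRNAs for CCL2, by 1.15 ± 0.23 (SE, edgeR adjusted p = 0.016), and for CXCL5, by −0.89 ± 0.14 (SE, edgeR adjusted p = 0.0024).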
